A study of Mus musculus with 9 samples.

Results

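The 10 genes of class II antigen presentation described here were followed through RNA-seq libraries of sorted mouse splenic B cells: H2-Aa, H2-Ab1, H2-Eb1, H2-DMa, H2-DMb1, H2-DMb2, H2-Oa, H2-Ob, Cd74 and Ciita. They were taken by gene symbol from the 24346 genes listed for each library, and all 10 were found. The libraries came from spleens of wild-type C57BL6 mice, 3 for each of 3 groups, and set age-associated B cells (ABCs) against follicular (FO) B cells at 2 ages. FO B (Young) were B220hiCD43-CD23+CD21lo cells of 8-week-old mice, FO B (Aged) were cells of the same gate from 50-week-old mice, and ABCs (Aged) were B220hiCD43-CD23-CD21loCD11b+CD11c+ cells of 50-week-old mice. No group carried a transgene or received a treatment. The libraries of a group are described as separate mice, and the labels do not say whether an ABC library and an aged FO B library came from the same animal, so p-values measure the spread between these samples.

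Major histocompatibility complex (MHC) class II molecules carry peptides from the endosomes to the cell surface, where CD4+ T cells read them. In the mouse, H2-Aa and H2-Ab1 encode the α and β chains of I-A, and H2-Eb1 encodes the β chain of I-E, whose α chain gene is defective in the C57BL/6 haplotype. Newly made chains are held by the invariant chain, the product of Cd74, whose last fragment (CLIP) is exchanged for peptide with the help of the H2-DM heterodimer. H2-DO, which is found mainly in B cells, binds H2-DM and restrains it. Full transcription of most other genes of this set depends on Ciita, a co-activator that does not bind DNA itself. Ciita is recruited by RFX, CREB and NF-Y proteins seated on a conserved promoter module with an X box and a Y box.

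In the GRCm38 annotation, 8 of the 10 genes lie within 224 kb at chr17:34092340-34316674, and Ciita lies at chr16:10480059-10528418 on the plus strand. The promoter stretches below were chosen because most genes of this set depend on Ciita for full transcription, while only some were called. They were also chosen because matches to X box and Y box strings lie near the start sites. They are RefSeq sequences of GRCm38.p6, given 5′ to 3′ on the strand of the gene. Matches to CTGATTGG, ATTGG, AACNNATGA and TGACGTCA are in capitals. Matches to AGCAACNG, which was also searched, are not marked. RefSeq windows of 300 bases, 250 before and 50 after a start site, were examined for 7 of the 10 genes, as 8 windows. No window was matched for H2-Ab1 or Ciita, and Cd74 was left out of this search.
H2-Eb1, chr17:34305737-34305841, plus strand: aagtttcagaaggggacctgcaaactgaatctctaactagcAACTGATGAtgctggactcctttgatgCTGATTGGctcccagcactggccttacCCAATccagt
H2-Aa, chr17:34287849-34287953, minus strand: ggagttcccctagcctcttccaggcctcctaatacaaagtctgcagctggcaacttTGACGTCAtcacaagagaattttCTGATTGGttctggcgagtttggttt
H2-DMb1, chr17:34153095-34153124, plus strand: tagtAACTGATGAtgctaggctgattcact
H2-DMb2, chr17:34145119-34145223, plus strand: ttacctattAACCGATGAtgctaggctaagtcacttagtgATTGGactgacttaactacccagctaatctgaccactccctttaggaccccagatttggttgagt
H2-Oa, chr17:34092249-34092353, plus strand: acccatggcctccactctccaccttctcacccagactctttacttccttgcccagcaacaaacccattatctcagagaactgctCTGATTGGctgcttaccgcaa
H2-Ob, chr17:34238775-34238879, plus strand: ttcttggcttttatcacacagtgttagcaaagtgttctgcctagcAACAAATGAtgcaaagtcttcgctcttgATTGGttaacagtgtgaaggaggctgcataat

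The Y box was searched on both strands as CTGATTGG, which contains the NF-Y core ATTGG, and the X box as AGCAACNG. The longer Y box was present in H2-Eb1, H2-Aa and H2-Oa, starting 62, 51 and 46 bases before the start site, against 4.1% of all 32851 windows. ATTGG was in every one of the 7 genes examined, but 37.4% of all windows hold it. AGCAACNG was found in H2-Eb1 and in no other of these genes, against 5.14% of windows. After the windows had been read, 2 other strings were added, AACNNATGA, which overlaps AGCAACNG, and the CREB element TGACGTCA, so their matches are descriptions of a pattern already seen. AACNNATGA occurred in H2-Eb1, H2-DMb1, H2-DMb2 and H2-Ob (2.85% of all windows), and in these 4 its first base lay 30, 31, 31 and 28 bases before that of ATTGG. TGACGTCA occurred in H2-Aa (1.79% of windows). Only 1 of the 2 windows of H2-DMa held any of these strings, ATTGG at 198 bases before the start, so H2-DMa is not printed, and the H2-DMb1 stretch is cut short because it lies in an annotated exon.

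Expression is given as FPKM, in which reads are scaled to transcript length and to library size, so that levels can be set side by side between genes. Cd74 had the highest FPKM of all genes in each of the 3 groups, and H2-Ab1 ranked 2, 3 and 2 in young FO B cells, aged FO B cells and ABCs. In the same order of groups H2-Aa ranked 5, 5 and 3 and H2-Eb1 ranked 29, 27 and 11. Below them came H2-DMb2, H2-DMa, H2-Ob, H2-Oa and H2-DMb1, and Ciita was the lowest of the 10 at 123 to 167 FPKM on average. This order was the same in young and aged FO B cells, and in ABCs H2-Oa and H2-Ob changed places. Within each group, no 2 neighbours in the order had libraries that overlapped. Together the 10 genes made up 7.11% ± 0.161 (SD, n = 3) of the summed FPKM in young FO B cells, 6.92% ± 0.235 in aged FO B cells and 8.37% ± 0.683 in ABCs.

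**Figure D1:**
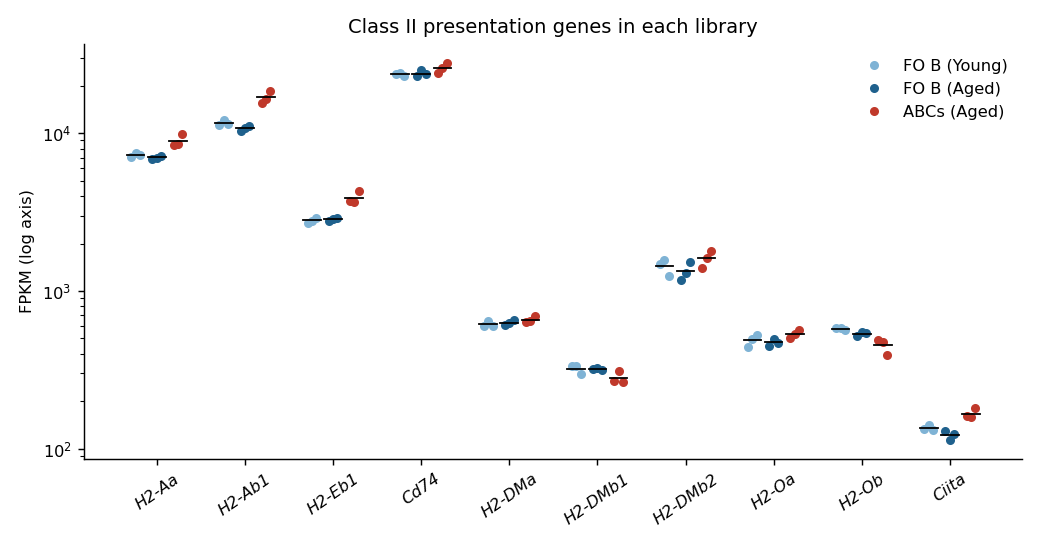
FPKM of the 10 class II presentation genes (log axis) in each library, coloured by group, with the group mean as a bar. H2-Aa, H2-Ab1, H2-Eb1 and Ciita were higher in all 3 ABC libraries than in any FO B library, and H2-Ob was lower in all 3.

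The differences between groups were tested with limma on log2(FPKM + 1) over every gene that averaged 1 FPKM or more across the libraries compared, and a gene was called at a false discovery rate (FDR, Benjamini-Hochberg) under 0.05. All 10 genes passed this filter in each group alone. Between ABCs and FO B cells of the same age, the classical chains and Ciita rose, while the invariant chain, H2-DM and H2-DO genes were not called. In bulk RNA, a higher level per cell and a different mix of cells cannot be told apart.

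Depth estimated from the steps of low FPKM values was 7300000 to 8900000 mapped reads per library, and 10032 to 10445 genes reached 1 FPKM. ABC replicate 3 stood apart from the other ABC libraries, with the highest H2-Ab1, H2-Aa, H2-Eb1, Cd74 and Ciita, the lowest H2-Ob, Cr2 at 0.745 FPKM against 4.93 and 8.39, S1pr3 at 125 FPKM against 54.8 and 40.3, and Cd79a at 2460 FPKM against 3250 and 3560. Without this library, H2-Ab1, H2-Eb1, H2-Aa and Ciita kept their calls, with log2 fold changes of 0.58, 0.37, 0.27 and 0.37 against aged FO B cells.

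H2-Ab1, the β chain of I-A, changed most. It stood at 10401, 10736 and 11070 FPKM in the aged FO B libraries and at 15610, 16596 and 18557 FPKM in the ABC libraries. Every ABC library lay above every FO B library, and the highest was replicate 3. The means were 10736 ± 335 and 16921 ± 1500 FPKM (SD, n = 3), a 1.58-fold difference (log2 fold change 0.65 ± 0.11 SE, limma FDR = 0.00398). Its partner H2-Aa, the I-A α chain, stood at 6896, 6992 and 7201 FPKM in aged FO B cells and at 8450, 8548 and 9834 FPKM in ABCs. These libraries also did not overlap, and the difference was 1.27-fold (0.34 ± 0.10, FDR = 0.0331). H2-Eb1, the β chain of I-E, was at 2763, 2878 and 2922 FPKM in aged FO B cells and at 3698, 3687 and 4301 FPKM in ABCs, 1.36-fold higher with no overlap (0.45 ± 0.09, FDR = 0.00872). The H2-Aa call was lost in 8 of 18 alternative fits. It was lost when any 1 library other than ABC replicate 3 was left out (FDR 0.065 to 0.117). It was also lost with no filter on low values (FDR = 0.264) and with quantile normalization (FDR = 0.162). The calls of H2-Ab1 and H2-Eb1 were kept without each library in turn, but with no filter on low values their FDR was 0.121 and 0.0568, and with quantile normalization that of H2-Ab1 was 0.114.

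Cd74, the invariant chain, was at 22974, 25072 and 23590 FPKM in aged FO B cells and at 24195, 25973 and 27958 FPKM in ABCs. The lowest ABC library fell among the FO B libraries, and Cd74 was not called (log2 fold change 0.12, 95% interval -0.16 to 0.41, FDR = 0.451). In this fit a Cd74 difference as large as that of H2-Ab1 (0.65) lies outside the interval, but one as large as that of H2-Aa (0.34) lies inside it. With no filter on low values the SE of Cd74 was 0.33, against 0.12 here.

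The H2-DM genes encode the heterodimer that removes CLIP, with H2-DMa for the α chain and H2-DMb1 and H2-DMb2 for alternative β chains. H2-DMa was nearly level, at 610, 627 and 652 FPKM in aged FO B cells and 634, 641 and 696 FPKM in ABCs (log2 fold change 0.06, 95% interval -0.10 to 0.22, FDR = 0.511), and its sign turned with quantile normalization (-0.08). H2-DMb2, the more abundant β chain, ran from 1175 through 1300 to 1533 FPKM in aged FO B cells and at 1409, 1624 and 1796 FPKM in ABCs. These ranges overlapped and the difference was not called (0.27 ± 0.13, FDR = 0.141). H2-DMb1 was at 319, 323 and 317 FPKM in aged FO B cells and at 268, 312 and 265 FPKM in ABCs. Every ABC library was below every FO B library for H2-DMb1, but the difference missed the threshold (-0.19 ± 0.08, FDR = 0.102) and passed it when ABC replicate 2 was left out (FDR = 0.0261 without that library) and with quantile normalization (FDR = 0.0198). The H2-DMb1 and H2-DMb2 transcripts are 94.6% identical over 1219 aligned bases, and 13.5% of the read-length stretches of H2-DMb1 also occur in H2-DMb2, so the division of reads between them is uncertain. Exons of H2-DMa share 360 bases with Brd2 on the opposite strand (51.2 to 55.6 FPKM on average), which cannot be separated without strand information.

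H2-DO is built from H2-Oa and H2-Ob, and the levels of the 2 chains differed in opposite directions. H2-Oa was at 451, 495 and 471 FPKM in aged FO B cells and at 502, 536 and 564 FPKM in ABCs, with all ABC libraries above (log2 fold change 0.18 ± 0.07, FDR = 0.0961). H2-Ob was at 515, 550 and 544 FPKM in aged FO B cells and at 489, 476 and 393 FPKM in ABCs, with all ABC libraries below (-0.25 ± 0.09, FDR = 0.0759). Neither passed the threshold against aged FO B cells. ABC replicate 3 was far below the other ABC libraries for H2-Ob, and without it the difference was -0.15 (FDR = 0.095). H2-Ob passed the threshold when all 9 libraries entered one fit (FDR = 0.034), after rescaling to TPM (FDR = 0.0447) and with quantile normalization (FDR = 0.0213). Of the read-length stretches of H2-Oa, 13.6% also lie in BC051537 on the opposite strand, which was at 0.104 to 0.621 FPKM on average.

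Ciita, the co-activator of the set, was at 130, 114 and 124 FPKM in aged FO B cells and at 161, 158 and 182 FPKM in ABCs. All ABC libraries were above, by 1.36-fold (log2 fold change 0.44 ± 0.08, FDR = 0.00623). The Ciita call held under each of 18 alternative fits, with FDR from 0.00123 to 0.0248. Its exons share 329 bases, 3.45% of their length, with Dexi on the opposite strand, which was at 39.9 to 46.3 FPKM on average.

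Counted together, 4 of the 10 genes rose in ABCs against aged FO B cells and 0 fell by limma, where 19.4% of the 10412 genes tested rose and 16.5% fell. At an unadjusted p under 0.05, 5 were higher and 2 lower, where 4862 of the 10412 genes passed in either direction. In 5 genes every ABC library was above every aged FO B library and in 2 every one was below, against 26.3% of all genes in each direction. The median log2 fold change of the 10 genes was 0.22, against -0.01 over all genes tested. For a single gene with no overlap, an exact two-sided permutation test of the 6 libraries gave p = 0.1, the smallest value that 3 against 3 can give.

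**Figure D2:**
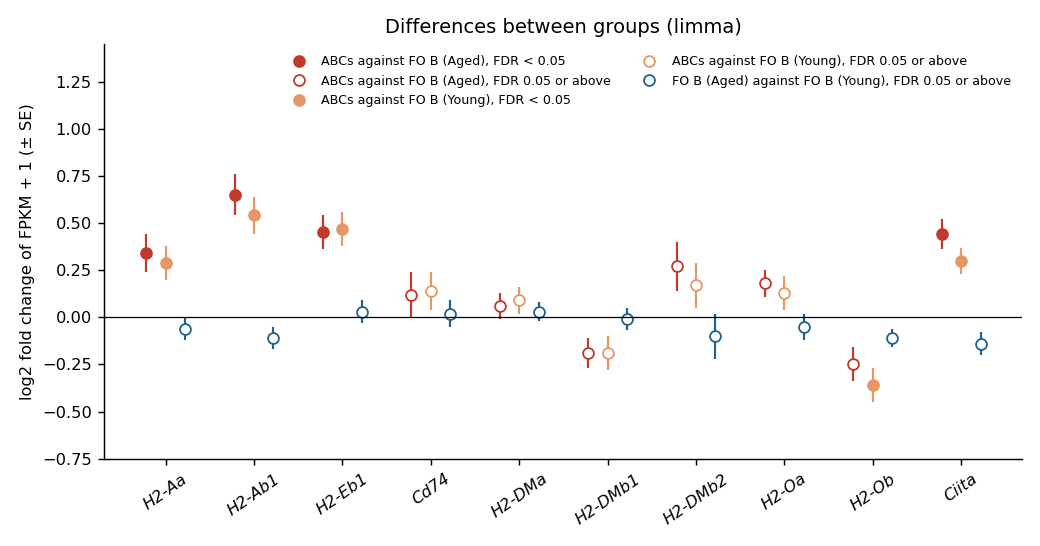
Log2 fold change of FPKM + 1 (± SE) of each class II presentation gene in the 3 comparisons, with filled points for limma FDR under 0.05. H2-Aa, H2-Ab1, H2-Eb1 and Ciita are filled above 0 in both ABC comparisons, H2-Ob is filled below 0 against young FO B cells only (-0.36), and no point of the age comparison is filled.

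The comparison of ABCs with young FO B cells used the same 3 ABC libraries and is given beside the first, not as separate evidence. H2-Ab1 was at 11251, 12049 and 11524 FPKM in young FO B cells, and ABCs were 1.46-fold higher (log2 fold change 0.54, FDR = 0.00457). H2-Eb1 was at 2715, 2791 and 2903 FPKM (1.39-fold, FDR = 0.00444), Ciita at 133, 141 and 132 FPKM (1.23-fold, FDR = 0.0162), and H2-Aa at 7084, 7525 and 7325 FPKM (1.22-fold, FDR = 0.0397). H2-Ob was at 584, 587 and 564 FPKM in young FO B cells, above each ABC library, and fell to 0.783 of that level (-0.36 ± 0.09, FDR = 0.0175). Thus 4 genes rose and 1 fell of the 10, where 21.6% of 10438 genes rose and 19.1% fell. Cd74 (0.14), H2-DMa (0.09), H2-DMb1 (-0.19), H2-DMb2 (0.17) and H2-Oa (0.13) were not called. The H2-Ob call was lost without young FO B replicate 1 or 2 (FDR = 0.0613 and 0.062), and the Ciita call without young FO B replicate 1 or 3 (FDR = 0.0608 and 0.06). The H2-Aa call was lost in 11 of 18 alternative fits, among them those without any 1 library other than ABC replicate 3 (FDR 0.0574 to 0.14).

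Between aged and young FO B cells, limma called 0 of the 10 genes in either direction. The background of called genes was low as well, with 0.346% of 10122 genes higher and 0.119% lower. At an unadjusted p under 0.05 there were 0 of the 10 genes, against 1298 of all genes tested. The largest differences were those of Ciita (log2 fold change -0.14, 95% interval -0.28 to 0.00, FDR = 0.399), H2-Ab1 (-0.11, -0.26 to 0.04, FDR = 0.518) and H2-Ob (-0.11, -0.22 to 0.01, FDR = 0.415). In these 3 genes each aged library was below each young library, and in no gene was each aged library above, against 8.96% and 9.64% of all genes. Cd74 was at 23599 ± 522 FPKM in young and 23879 ± 1080 FPKM in aged FO B cells. The intervals of all 10 genes lay between -0.37 and 0.18 on the log2 scale. With upper quartile scaling the signs of H2-Eb1, Cd74 and H2-DMa turned, from 0.03, 0.02 and 0.03 to -0.10, -0.11 and -0.10. The aged FO B libraries also served as the reference for ABCs, so the 2 comparisons are not independent.

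Because the chains work as pairs, the ratio of FPKM between partners was taken in each library, as a description with no test. H2-Ab1 to H2-Aa was 1.57 to 1.60 in young FO B cells, 1.51 to 1.54 in aged FO B cells and 1.85 to 1.94 in ABCs. Cd74 to H2-Ab1, the invariant chain against a class II β chain, was 2.03 and 2.23 on average in young and aged FO B cells and 1.54 in ABCs, where it ran from 1.51 to 1.57. Both ratios in ABCs were outside the range of every FO B library, with a narrow spread. How often other pairs of genes separate in this way was not examined. H2-Ob to H2-DMa, an inhibitor chain against its target, was 0.94, 0.852 and 0.693 in young FO B cells, aged FO B cells and ABCs, and the last was 0.757 without its lowest library. H2-Oa to H2-DMa did not order the groups in the same way (0.796, 0.751 and 0.813). H2-Oa to H2-Ob, which was added to the ratios first planned, was below 1 in every FO B library (0.755 to 0.939). It was above 1 in every ABC library (1.03, 1.13 and 1.43), with the highest value in replicate 3. Neither gene was called against aged FO B cells. H2-DMb2 to H2-DMb1 was 4.19 to 4.74, 3.68 to 4.84 and 5.20 to 6.77 in the same order of groups, and carries the uncertainty of reads shared by these genes.

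**Figure D3:**
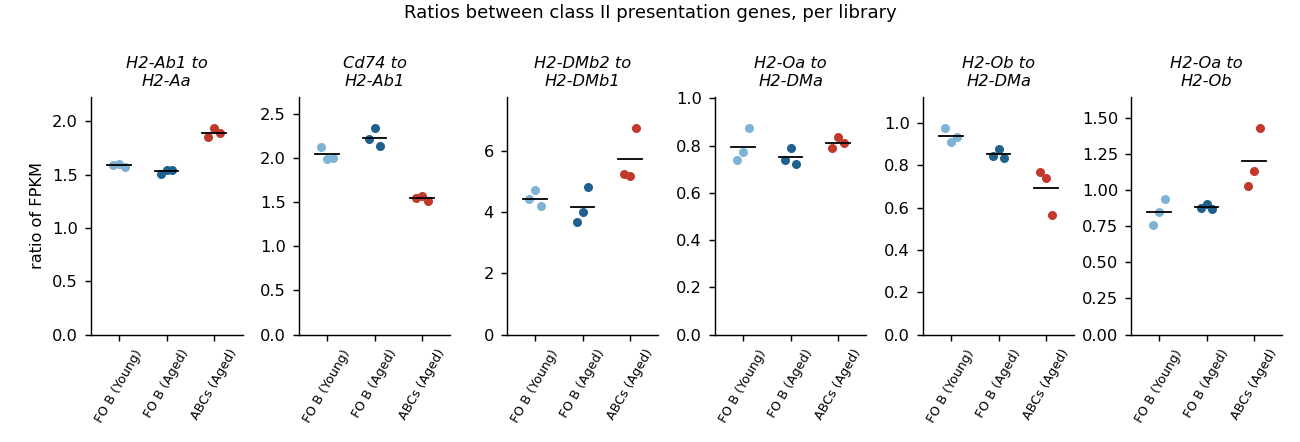
Ratio of FPKM between pairs of class II presentation genes in each library (axes from 0), with the group mean as a bar. H2-Ab1 to H2-Aa, H2-Oa to H2-Ob and H2-DMb2 to H2-DMb1 are higher in all 3 ABC libraries than in all FO B libraries. Cd74 to H2-Ab1 and H2-Ob to H2-DMa are lower in all 3, and H2-Oa to H2-DMa overlaps.

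The shared pattern of the abundant members was described by the mean centred profile of H2-Aa, H2-Ab1, H2-Eb1 and Cd74 over the 9 libraries. Among 10365 genes, those closest to it by root mean square distance were Vps28 and Sri (0.036 log2 units each), Sh3bgrl3 (0.037), Fryl (0.04) and Ogdh (0.043). The profile itself varied by 0.187 log2 units about its mean, by root mean square. The variation of single genes about their own means had a median of 0.2, which is not a distance to the profile. Vps28, for instance, averaged 304, 298 and 389 FPKM in young FO B cells, aged FO B cells and ABCs.

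The genes that act on this set were taken as lists from textbook roles. Over all genes tested, 19.4% rose and 16.5% fell in ABCs against aged FO B cells. These shares stand beside every list count of that comparison below. Of the 7 promoter factors (the RFX subunits, Creb1 and the NF-Y subunits), 3 fell in ABCs against aged FO B cells and 0 rose, with a median of -0.17. Nfyb, an NF-Y subunit that reads the Y box, was at 28.4, 24.3 and 27.1 FPKM in aged FO B cells and at 19.9, 20.2 and 19.1 FPKM in ABCs (log2 fold change -0.41, FDR = 0.00852). Rfx5, the RFX subunit at the X box, went from 18.9 ± 0.725 to 14.5 ± 1.69 FPKM (-0.37, FDR = 0.0276), and Creb1 from 13.8 ± 1.14 to 11 ± 0.462 FPKM (-0.29, FDR = 0.0468). These genes thus had lower transcript levels where Ciita and the classical chains had higher ones. Rfxap, Rfxank, Nfya and Nfyc were not called. Without ABC replicate 3, 2 of the 7 fell.

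Of 7 regulators of Ciita, 2 rose and 2 fell, where 19.4% of all genes tested rose and 16.5% fell. Prdm1, a repressor of Ciita in plasma cells, was at 0.713, 0.243 and 0.18 FPKM in aged FO B cells and at 5.7, 4.74 and 2.93 FPKM in ABCs, so it rose from near 0 to a low level (log2 fold change 1.97, FDR = 0.00119). Irf8, an interferon regulatory factor of B cells and myeloid cells, rose from 308 ± 19.2 to 451 ± 16.3 FPKM (0.55, FDR = 0.00116). The B cell identity factors Pax5 and Ebf1 fell, Pax5 from 29.6 ± 2.96 to 20.3 ± 1.34 FPKM (-0.52, FDR = 0.00625) and Ebf1 from 69.2 ± 5.53 to 41.7 ± 10.6 FPKM (-0.74, FDR = 0.0123). Spi1, Irf1 and Irf4 were not called. Without ABC replicate 3, 2 rose and 3 fell.

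The list of invariant chain cleavage and antigen processing showed the most calls in one direction, 9 of 11 higher and 0 lower, with a median of 0.74. Over all genes tested, 19.4% were higher and 16.5% lower. The 9 include Cst3, which encodes an inhibitor of cathepsins and not a protease (FDR = 0.0367). Cst3 averaged 357 ± 36.7 FPKM in aged FO B cells and was at 484, 464 and 767 FPKM in ABCs, highest in replicate 3. Ctsb, a lysosomal cysteine protease, stood at 44.1, 49.3 and 46.1 FPKM in aged FO B cells and at 118, 123 and 144 FPKM in ABCs (log2 fold change 1.44, FDR = 7.03e-05). Ctsh rose 2-fold (533 ± 18 to 1070 ± 79 FPKM, FDR = 0.00015), and Ctsl (2.15-fold) and Ctsz (1.88-fold) also rose. Ctss, the protease that trims the invariant chain in B cells, was at 844, 842 and 877 FPKM in aged FO B cells and at 852, 806 and 824 FPKM in ABCs. The Ctss libraries overlapped and it was not called (-0.05, FDR = 0.591), nor was Sppl2a, which cuts the remaining Cd74 fragment in the membrane (0.25, FDR = 0.102). The counts of this list were the same without ABC replicate 3.

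Of the 3 genes of surface turnover, 2 were tested, of which 1 fell. March1, the ubiquitin ligase that removes class II from the surface, was at 46.4, 51.9 and 54.2 FPKM in aged FO B cells and at 39.5, 38.5 and 35.4 FPKM in ABCs, so that it fell without overlap (log2 fold change -0.42, FDR = 0.00801). Cd83, which opposes March1, was not called (-0.09, FDR = 0.69). March8, a related ligase, did not pass the filter on low values, at 0.0603, 0.0992 and 0 FPKM in aged FO B cells and 1.51, 1.02 and 0.939 FPKM in ABCs. Of the 4 partners of surface Cd74, Cd44, its signalling co-receptor, rose from 17.4 ± 1.85 to 78.5 ± 14.7 FPKM (2.1, FDR = 8.93e-05). Its ligands Mif (-0.14) and Ddt (0.27) and the co-receptor Cxcr4 (0.19) were not called, and without ABC replicate 3 the count that rose was 2.

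**Figure D4:**
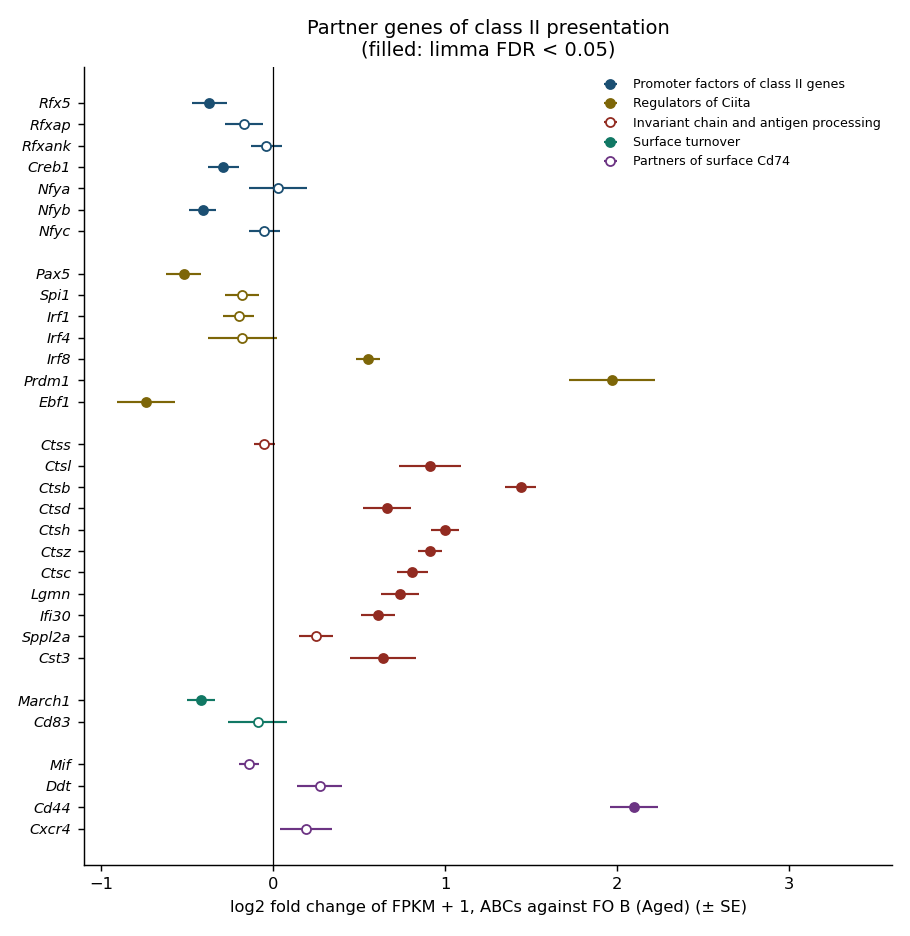
Log2 fold change of FPKM + 1 (± SE) in ABCs against aged FO B cells for genes that act on class II presentation, coloured by list and filled for limma FDR under 0.05. The antigen processing genes lie mostly to the right, with Ctss at -0.05, while Nfyb, Rfx5, Creb1, Pax5, Ebf1 and March1 are filled to the left.

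The aged and young FO B cells differed in few of these genes. Ifi30, the lysosomal thiol reductase that opens disulfide bonds of antigens, rose 1.54-fold in aged FO B cells (log2 fold change 0.62, FDR = 0.00608), and Irf1 rose 1.41-fold (0.48, FDR = 0.0404). Of the promoter factors, the surface turnover genes, the Cd74 partners and the other genes of the region, 0 were called in this comparison. Over all genes, 0.346% were higher and 0.119% lower. Against young FO B cells, ABCs had 9 of 11 genes of the processing list higher, 2 of 7 promoter factors lower (Nfyb and Rfx5), and 3 regulators of Ciita higher with 2 lower. Over all genes of that comparison, 21.6% were higher and 19.1% lower.

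In and beside the region, 8 other genes were listed, with H2-Eb2, H2-Ea-ps and Btnl2 beyond H2-Eb1 and the others between the class II genes. Of the 8, 3 rose and 2 fell in ABCs against aged FO B cells, where 19.4% of all genes tested rose and 16.5% fell. Psmb9, an immunoproteasome subunit, rose from 414 ± 25.1 to 722 ± 64.4 FPKM (log2 fold change 0.80, FDR = 0.000596), and its neighbours Tap1 (0.35, FDR = 0.0161) and Psmb8 (0.21, FDR = 0.0439) also rose. These serve class I presentation. H2-Ea-ps, the defective I-E α gene, was at 1.75 ± 0.232 FPKM in aged FO B cells and 0.761 ± 0.262 FPKM in ABCs (-0.65, FDR = 0.0268), and Btnl2 fell from 5.99 ± 0.255 to 3.56 ± 0.781 FPKM (-0.63, FDR = 0.0149). H2-Eb1, at 2854 and 3896 FPKM in the same groups, was thus expressed far above the gene for its α chain. Along the region, the 3 classical genes that rose lie next to one another, between 165.3 and 213.5 kb from the start of H2-Oa, with H2-Ob, at 146.6 kb, beside them and lower (-0.25, not called). Without ABC replicate 3, 2 of the 8 other genes rose and 2 fell.

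**Figure D5:**
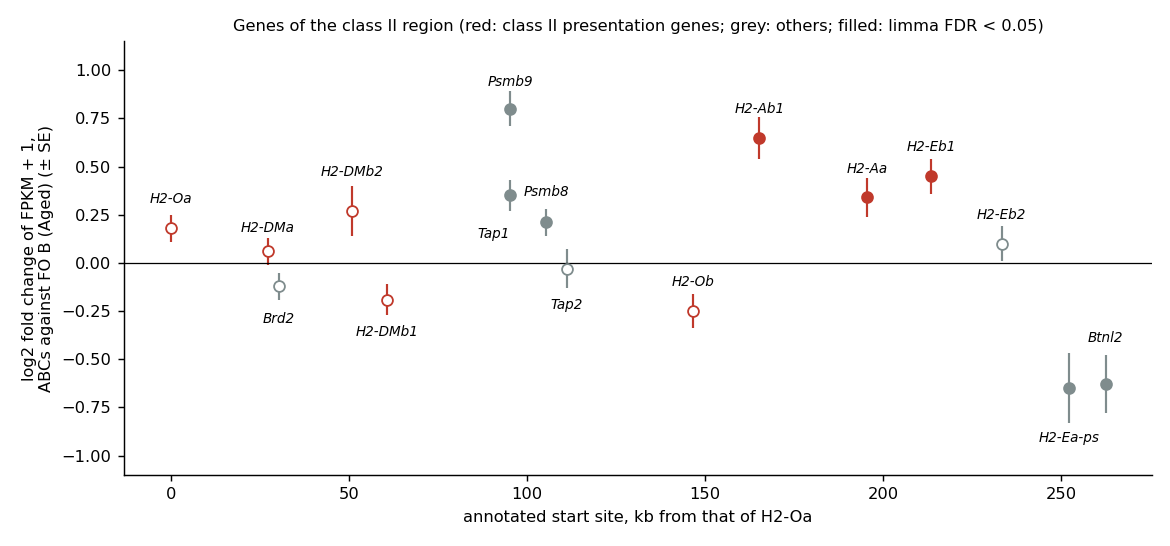
Log2 fold change of FPKM + 1 (± SE), ABCs against aged FO B cells, by distance in kb of the annotated start site from that of H2-Oa, with class II presentation genes in red, other genes in grey, and filled points for limma FDR under 0.05. H2-Ab1, H2-Aa and H2-Eb1 are filled above 0 side by side, and Psmb9 is the highest point (0.80).

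Since dendritic cells and macrophages also express class II at high levels, and since CD11b and CD11c chose the ABCs, markers of other cells were examined in the same libraries. The 5 B cell markers summed to 7520 to 7890 FPKM in aged FO B cells and to 6530 to 8360 FPKM in ABCs. By limma 2 were higher (Cd22, log2 fold change 1.06, and Blk, 0.50) and 0 lower. Cd79a (-0.05), Cd79b (-0.2) and Ms4a1 (-0.27) were not called, though for Cd79b and Ms4a1 every ABC library was below every aged FO B library. The 8 dendritic cell markers summed to 2.46 to 5.08 FPKM in aged FO B cells and to 8.94 to 13.5 FPKM in ABCs. Of the 3 that passed the filter, Zbtb46 (0.853 ± 0.534 to 3.17 ± 0.235 FPKM, FDR = 0.00542) and Batf3 rose. Batf3 was listed at 0 in each aged FO B library and at 3.42, 1.99 and 9.46 FPKM in ABCs, while Clec9a, Clec10a and Xcr1 were under 1 FPKM in every library. Flt3, the third, averaged 2.18 ± 0.938 FPKM in aged FO B cells and 0.765 ± 0.576 FPKM in ABCs and was not called (FDR = 0.0862). Siglech, not tested, was at 0, 0 and 0.36 FPKM in aged FO B cells and at 1.56, 1.16 and 0.664 FPKM in ABCs, and Cd209a averaged 0.5 and 0.57 FPKM. The 9 macrophage and monocyte markers summed to 10.8 to 17.4 FPKM in aged FO B cells and to 197 to 239 FPKM in ABCs. Nearly all of this came from Adgre1, a surface receptor gene of macrophages, at 174, 222 and 199 FPKM in ABCs and 2.90 ± 0.342 FPKM in aged FO B cells (5.67, FDR = 9.13e-07). Cd68 also rose (1.13, FDR = 0.0155). Csf1r, Cd14, Mertk and C1qa averaged 0.0902 to 0.52 FPKM in ABCs, Ccr2 was at 0.36, 0.0326 and 1.93 FPKM there against 0.0364 FPKM on average in aged FO B cells, C1qb was not called (0.63, FDR = 0.154), and Lyz2 was not called (0.31, FDR = 0.614). The part of other cells in the class II differences was not tested.

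Of 6 plasma cell markers, 4 rose (Jchain, 2.34, Prdm1, 1.97, Sdc1, 1.82, and Mzb1, 1.56, on the log2 scale). Xbp1 (0.23) and Irf4 (-0.18) were not called. Irf4 was at 17.1, 17.1 and 17.8 FPKM in aged FO B cells and at 15, 11.1 and 20.7 FPKM in ABCs. Without ABC replicate 3, 4 rose and 1, Irf4, fell. Sdc1 was at 29.5 FPKM in that library against 9.54 and 8.37 FPKM in the other ABC libraries, and Jchain at 12.5 FPKM against 61.6 and 40.5 FPKM. Of 5 marginal zone markers, Cd9 (3) and S1pr3 (3.73) rose and Cr2 (-5.04) and Cd1d1 (-0.76) fell, and all 6 genes tied to the sort or to ABC identity were called, Itgam, Itgax, Spn and Tbx21 higher and Fcer2a and Cr2 lower. CD23 (Fcer2a), CD11b (Itgam) and CD11c (Itgax) set the 2 gates apart, so these 3 are no findings. Both gates took CD21lo cells, and Cr2, which encodes CD21, averaged 151 ± 20.7 FPKM in aged FO B cells and 4.69 ± 3.83 FPKM in ABCs. Both gates took CD43- cells, and Spn, which encodes CD43, averaged 3.05 ± 0.283 FPKM in aged FO B cells and 67.8 ± 16.9 FPKM in ABCs.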

How the data were processed

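RNA was sorted-cell total RNA, amplified to full-length cDNA with a SMART-Seq HT kit and made into libraries with a NexteraXT kit, neither of which marks strand. The authors mapped 101-base single-end reads to mm10 and deposited 1 FPKM value per gene symbol and library. The submitters' processing notes name TopHat2 2.1.1, Bowtie2 2.2.8, SAMtools 0.1.18 and Cuffdiff 2.2.1; the gene annotation is not given in the sources used here. FPKM holds no counts, so no count model was used, and a rise in abundant genes lowers the values of the rest of a library.

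From the deposited FPKM, log2(FPKM + 1) was fitted with limma 3.58.1 (lmFit, eBayes with trend) in R 4.3.3, for the 2 groups of each comparison only, over every gene averaging 1 FPKM or more in them, after the fit had been tested on simulated data. Fold changes on this scale understate those of low genes. Groups came from the sample titles. The 10 genes and the lists were chosen with earlier results of these data known; a few list genes and 1 sort marker are not reported here. All 10 genes are named, of each list up to 4 called genes with the largest change against aged FO B cells, plus genes that complete a list's description, and 5 genes nearest in profile. Depth was estimated from 421 genes with 1 transcript each and low values. Positions and exon overlaps are from GENCODE M21, promoter windows from RefSeq. Alternatives changed the pseudocount, filter, scaling, variance prior, libraries, replicate block and threshold. Python 3.11.15 and pandas 2.3.3 were used for the rest.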

Additional observations from a re-analysis of the deposited data

How the results depend on the processing

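No class II gene called in a comparison reversed under any alternative, and 0 were called between aged and young FO B cells under each. Against aged FO B cells the count of the 10 genes higher, 4, was 6 with upper quartile scaling and 3 with quantile normalization or FDR under 0.01. It was 1 with no filter, 0 at an absolute log2 fold change above 2.3 with FDR under 0.01, and 3 to 4 without each library in turn. The count lower, 0, was 2 with quantile normalization, 1 after rescaling to TPM, 1 with all 9 libraries in the fit, and 0 to 1 without each library in turn. Against young FO B cells the count higher, 4, was 2 with no filter, quantile normalization, upper quartile scaling or FDR under 0.01, 0 with the fold threshold, and 2 to 4 without each library; the count lower, 1, was 2 with quantile normalization, 0 with upper quartile scaling, FDR under 0.01 or the fold threshold, and 0 to 2 without each library. Quantile normalization gives genes of equal rank equal values, so for Cd74, first in each group, and H2-Ab1, of equal rank in ABCs and young FO B cells, little difference was left (0 for both against young FO B cells). H2-DMb2 (FDR = 0.0221) passed the threshold against aged FO B cells with it, and H2-DMb2 (FDR = 0.0338) and H2-Oa (FDR = 0.0435) with upper quartile scaling. Upper quartile scaling moved the median of all genes to 0.15 against aged FO B cells and to -0.12 between ages. The numbers of all genes higher and lower against aged FO B cells, 2020 and 1719, ran from 155 to 2459 and from 45 to 2145, against young FO B cells, 2252 and 1996, from 180 to 2318 and from 50 to 2439, and between ages, 35 and 12, from 2 to 48 and from 0 to 27. Whether replicate numbers mark shared mice is not known. The correlations of deviations between same-numbered ABC and aged FO B libraries were 0.0827, -0.0175 and 0.109. They were not all above 0.1, and the number was not taken as a pairing in the main fit. ABC replicates 1 and 3 correlated best with the aged FO B library of their own number, and ABC replicate 2 did not. Correlations over 3 libraries per group cannot settle whether mice were shared, so the replicate block is given as an alternative. With the replicate block, 4 genes were again higher against aged FO B cells and 3 against young, and against aged FO B cells H2-Aa was not called (FDR = 0.0758) and H2-DMb2 was (FDR = 0.0475). Counts of the lists without ABC replicate 3 were an alternative chosen after seeing the data. With FPKM only, counting error per gene is unknown, and at 3 libraries per group differences of the size of H2-Oa and H2-DMb1 were not resolved.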
